A study of Mus musculus with 10 samples.

Results

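The genes described here encode the chaperones, folding enzymes and degradation machinery of the endoplasmic reticulum (ER), together with the stress sensors that set their expression. They were taken as all rows of the deposited count table whose gene symbol was on a fixed list of 38 names. All 38 were found, out of 33212 genes in the table, and all 38 had enough counts to be tested. The rule reads gene names and no measured value, but the list of names was chosen with earlier results of these data known. By role, 22 are chaperones, disulfide isomerases and oxidases or prolyl isomerases, 14 are degradation factors and sensors, and 2 belong to the translocation channel.

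The libraries came from αTC1 cells, a mouse line established from a glucagon-producing tumour of pancreatic α cells whose growth is driven by a viral oncogene under the glucagon gene promoter. Cells in low-glucose medium with serum received 10 μM enzalutamide, an androgen receptor antagonist, or the solvent DMSO, and polyadenylated RNA was sequenced after 48 h. There were 5 DMSO and 5 enzalutamide libraries, all from this 1 line, and the labels give no genetic change in either group. Totals ran from 59557697 to 68603842 counts per library. The α cell genes Gcg, Irx1, Irx2, Ttr, Pcsk2 and Slc38a5 were present, whereas Gc, another gene of mature α cells, had 0 counts in every library. Of 12 markers of other islet, exocrine, immune, connective and endothelial cells, 7 had 0 counts in every library and the highest was Cela1, an elastase gene, at 6.73 CPM in DMSO, where CPM are counts scaled to the size of each library. Among these α cell genes, Gcg was at 15269 CPM in DMSO and 8466 in enzalutamide, Ttr at 1153 and 496, and Slc38a5 at 974 and 490. Pcsk2 was at 2224 and 2270 CPM, Irx1 at 153 and 156, and Irx2 at 187 and 189. Whether the difference in Gcg has a part in the changes of the ER genes was not tested. In bulk RNA of this kind, less RNA per cell and fewer cells that express a gene cannot be told apart.

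Secreted and membrane proteins enter the ER through the Sec61 channel and are folded there by Hsp70 and Hsp90 chaperones, by lectin chaperones that bind sugar-tagged proteins, and by enzymes that form disulfide bonds. Proteins that fail to fold are moved back to the cytosol and destroyed by the proteasome, a route called ER-associated degradation. When unfolded protein accumulates, the sensors IRE1 (gene Ern1), ATF6 and PERK raise the expression of chaperones and degradation factors. ATF6 and the spliced form of XBP1 do so through short DNA elements in promoters, and PERK does so through translation of ATF4. Endocrine cells, which export large amounts of hormone, are known to rely heavily on this system.

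Most of the chaperones and oxidases were lower in enzalutamide, and most of the degradation factors and sensors were higher. By edgeR's quasi-likelihood test at an adjusted p under 0.05, 23 of the 38 genes fell and 9 rose, while 6 did not pass. That is 84.2% of them, where 37.8% of all 14156 genes tested passed (19% higher and 18.8% lower). Among the chaperones and oxidases 17 of 22 fell and 1 rose, with a median of -0.22 for the log2 fold change (log2FC, enzalutamide over DMSO, given below ± its SE). Among the degradation factors and sensors 8 of 14 rose and 4 fell, with a median of 0.17. The median over all genes tested was 0.01. The values of the DMSO and enzalutamide libraries did not overlap for 28 of the 38 genes (73.7%), against 26.8% of all genes tested. In 7 of these the enzalutamide values lay above and in 21 below. Higher calls made up 50.3% of all calls, and 60.7% under total-count scaling.

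The changes were small. Of the 32 genes that passed, 29 changed by less than 1.5-fold, and the median size of their log2FC was 0.29. Summed over the 22 chaperones and oxidases, the level was between 5043 and 5179 CPM in the DMSO libraries and between 4096 and 4321 CPM in the enzalutamide libraries, a mean 17.9% lower (percent change -17.9). Summed over the 14 degradation factors and sensors, it was between 1121 and 1147 CPM in DMSO and between 1263 and 1369 CPM in enzalutamide, a mean 15.1% higher. Neither pair of ranges overlapped, and abundant members dominate such sums.

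**Figure D1:**
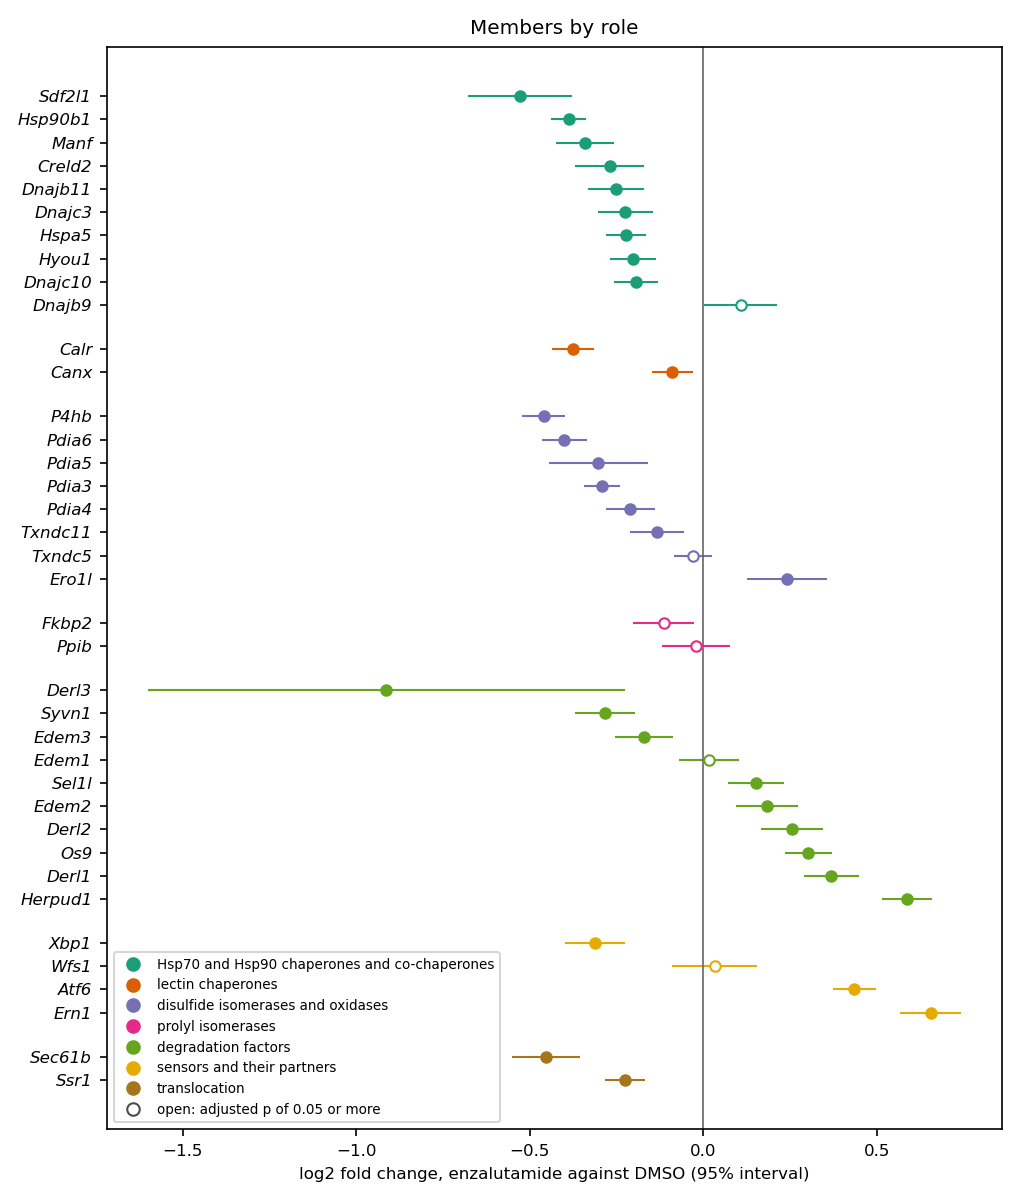
The log2 fold change of each of the 38 genes (x axis, enzalutamide against DMSO, with its 95% interval), grouped and coloured by role. Filled points passed at an adjusted p under 0.05: the chaperones and oxidases lie mostly left of 0, and most degradation factors and sensors lie right of it.

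The promoters of these genes were examined as part of the planned description. The plan named the share of genes with each motif, and not a split by direction of change. RefSeq windows from 250 bases before to 50 bases after the start site (GRCm38.p6) were matched for 34 of the 38 genes, those of Hyou1, Manf, Derl1 and Atf6 being unmatched. A gene with several start sites had a window for each and counted as a match if any of them held the motif. Both strands were searched for 4 exact motifs. The ER stress element, the site of ATF6 with the general factor NF-Y, was searched as CCAAT and CCACG separated by 9 bases. The ER stress element II was searched as ATTGG and CCACG separated by 1 base. The unfolded protein response element, a site of XBP1 and ATF6, was searched as TGACGTG, and the ATF4 composite element as TGATGNAA. No matches of different motifs overlapped in a member's window, although the ATTGG of the second motif is the reverse complement of the CCAAT of the first.

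The ER stress element was present in 9 of the 34 genes (26.5%), and all 9 fell in the main test: Hspa5, Hsp90b1, Calr, Canx, Pdia6, Dnajc3, Creld2, Syvn1 and Derl3. The calls of Canx and Derl3 did not hold throughout, and were lost under 4 and 11 alternative settings. The element was present in 37 of the 27025 genes of the RefSeq promoter table (0.137%), and in 21 of the 10584 tested genes matched to a window (0.198%). Of the 25 matched genes without it, 12 fell, 7 rose and 6 did not pass. The fallen genes with and without the element had fallen by similar amounts, with median log2FCs of -0.28 and -0.27. Hspa5, Hsp90b1 and Calr are textbook targets of ATF6 through this element, so its frequency in a list of this kind is not a finding about enzalutamide. The sequences of 8 of these 9 genes are shown for the position and strand of the element, upstream of the start site and on the strand of the gene. Capitals mark the fixed letters of a motif, which read CGTGG and ATTGG where the element lies on the opposite strand. Hspa5 and Hsp90b1 are given over 250 bases, with the TGACGTG motif of Hspa5 also in capitals, and the others with 20 bases on either side.

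Hspa5 (chr2:34771840-34772089, plus strand): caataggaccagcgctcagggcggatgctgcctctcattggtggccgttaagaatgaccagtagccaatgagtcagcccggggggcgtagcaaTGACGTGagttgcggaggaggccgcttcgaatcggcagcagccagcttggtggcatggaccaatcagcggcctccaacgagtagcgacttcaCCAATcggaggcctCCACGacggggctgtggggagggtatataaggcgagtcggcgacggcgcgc
Hsp90b1 (chr10:86705445-86705694, minus strand): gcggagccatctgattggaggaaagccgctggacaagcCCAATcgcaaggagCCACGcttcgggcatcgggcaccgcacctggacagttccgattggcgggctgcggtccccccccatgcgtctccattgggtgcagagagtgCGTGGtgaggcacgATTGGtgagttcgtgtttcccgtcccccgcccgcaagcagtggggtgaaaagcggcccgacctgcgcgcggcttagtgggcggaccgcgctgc
Calr (chr8:84847055-84847113, minus strand): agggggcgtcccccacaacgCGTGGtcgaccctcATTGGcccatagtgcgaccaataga
Canx (chr11:50325780-50325838, minus strand): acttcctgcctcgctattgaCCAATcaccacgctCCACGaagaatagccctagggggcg
Pdia6 (chr12:17266471-17266529, plus strand): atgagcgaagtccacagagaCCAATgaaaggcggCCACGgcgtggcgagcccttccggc
Dnajc3 (chr14:118937807-118937865, plus strand): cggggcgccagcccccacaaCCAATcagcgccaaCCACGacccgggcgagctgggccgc
Creld2 (chr15:88819500-88819558, plus strand): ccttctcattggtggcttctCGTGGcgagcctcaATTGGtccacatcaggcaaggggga
Syvn1 (chr19:6046512-6046570, plus strand): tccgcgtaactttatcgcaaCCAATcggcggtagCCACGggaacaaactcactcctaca

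Herpud1, the degradation factor with the largest rise, had other exact matches. Its window held no exact match to the ER stress element of the first kind. It held an ER stress element II 52 to 42 bases before the start. On the opposite strand it held an ATF4 composite element 112 to 105 bases before the start. Herpud1 is shown over 250 bases for comparison with the fallen genes. The stretch shown ends in CCAAT and, at the spacing of the ER stress element, CCAC. The base that follows is not shown, and by the exact search it was not the G of the element. The absence of that element from Herpud1 therefore rests on that letter. Near matches were not searched in any gene.

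Herpud1 (chr8:94386179-94386428, plus strand): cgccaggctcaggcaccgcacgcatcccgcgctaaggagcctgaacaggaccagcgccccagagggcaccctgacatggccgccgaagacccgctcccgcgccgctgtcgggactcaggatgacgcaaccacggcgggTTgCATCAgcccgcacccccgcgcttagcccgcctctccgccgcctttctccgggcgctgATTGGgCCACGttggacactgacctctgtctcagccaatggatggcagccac

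The ER stress element II occurred in 2 of the 34 genes, Herpud1 and Dnajb11, where it lay after the start site. It occurred in 12 genes of the promoter table (0.0444%) and in 0.085% of the tested genes matched to a window. The ATF4 composite element occurred in Herpud1 and Txndc5 (5.88% of the matched members, 4.51% of the table and 2.70% of the matched tested genes). TGACGTG occurred in Hspa5, Txndc11 and Txndc5 (8.82%, 2.22% and 3.32%), in Txndc5 at another start site than its ATF4 composite element. Outside the 38 genes, 12 tested genes had the ER stress element, of which 4 were lower and 2 higher, with a median log2FC of -0.06. The ATF4 composite element occurred in 284 tested genes outside the list, of which 97 (34.2%) were higher and 40 (14.1%) lower. Of all 14156 genes tested 19% were higher and 18.8% lower, but only 10584 were matched to a window, so this is not a like background. Of the 348 tested genes outside the list with TGACGTG, 21.6% were higher and 25.3% lower. These differences were not tested. These matches describe letters in a window and not binding.

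**Figure D2:**
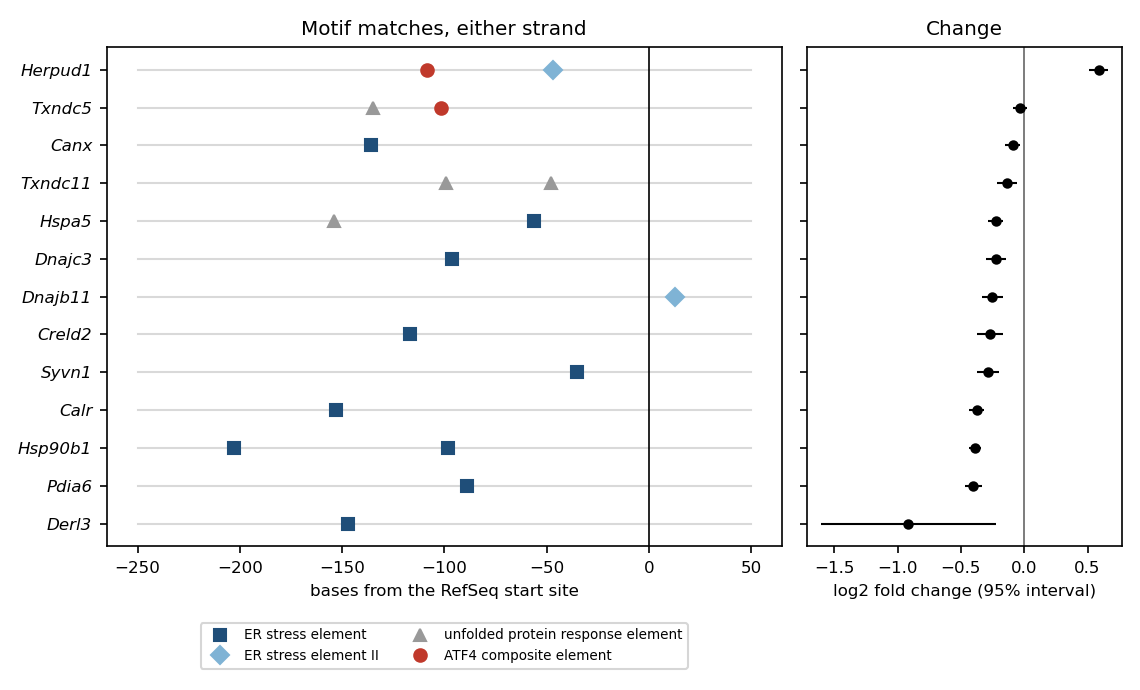
Left: matches of the 4 motifs (symbols, either strand) by distance in bases from the RefSeq start site, for the 13 genes with any match, with all start sites of a gene on 1 line. Right: the log2 fold change of the same gene with its 95% interval. The dark squares, ER stress elements, appear only beside genes left of 0, and Herpud1 alone has the pale diamond together with the red circle.

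The Hsp70 and Hsp90 chaperones and their co-chaperones fell in 9 of 10 cases, and none rose. Hspa5 encodes BiP, the Hsp70 of the ER, which binds unfolded chains and holds the sensors inactive (chromosome 2, 34771970 to 34777547 of GRCm38/mm10). It was at 525.8, 512, 503, 511 and 506 CPM in DMSO libraries 1 to 5 and 426, 460.2, 448, 438 and 418 CPM in enzalutamide libraries 1 to 5. Every enzalutamide value lay below every DMSO value, with a gap of 43.1 CPM (log2FC -0.22 ± 0.0298, adjusted p = 1.33e-05).

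Hsp90b1 encodes GRP94, the Hsp90 of the ER (chromosome 10, 86690209 to 86705509). It was at 896, 871, 882, 882 and 877 CPM in DMSO and at 661, 682, 672, 700 and 654 CPM in enzalutamide. The groups were far apart compared with their spread (log2FC -0.39 ± 0.0255, adjusted p = 3.17e-09). Its exons share 415 bases with an opposite-strand pseudogene, 1810014B01Rik, which had a mean of 796 counts per library.

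Sdf2l1, a partner of BiP that limits aggregation, had the steepest fall of these genes (log2FC -0.53 ± 0.076, adjusted p = 3.01e-05). Its values were 26.3, 29, 28.2, 25.9 and 28.2 CPM in DMSO and 20.1, 19.7, 17.1, 22.4 and 16.1 CPM in enzalutamide, where the libraries also scattered more. Manf, a secreted protein that protects cells under ER stress, had 199 ± 6.64 CPM in DMSO against 157 ± 10.8 in enzalutamide (SD, n = 5 each; log2FC -0.34). Manf shares exon sequence with the opposite-strand gene Dcaf1, at a mean of 9411 counts, and whether reads were shared was not tested, here and for the other overlaps given below. Creld2, a folding factor induced by ER stress, fell from 42.8 ± 1.94 to 35.5 ± 2.19 CPM.

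Co-chaperones with a J domain, which stimulate BiP, fell in 3 of 4 cases. They were Dnajb11 (log2FC -0.25 ± 0.0417), Dnajc3 (-0.22 ± 0.0405) and Dnajc10 (-0.19 ± 0.0324), the last of which is also a disulfide reductase that prepares proteins for degradation. Hyou1, the nucleotide exchange factor of BiP, fell from 165 ± 6.98 to 144 ± 2.8 CPM. The fourth J protein gene was Dnajb9, which encodes a repressor of IRE1. It had 30.7 ± 1.75 CPM in DMSO against 33.1 ± 1.93 in enzalutamide, with overlapping values and a log2FC of 0.11 (95% interval 0.0015 to 0.21, adjusted p = 0.134). This interval, a normal one, excluded 0 although the unadjusted quasi-likelihood p was 0.0633. Under total-count scaling the Dnajb9 log2FC was 0.14 (adjusted p = 0.0466).

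The lectin chaperones calreticulin and calnexin bind newly made glycoproteins. Calr, the soluble one, was at 627, 640.3, 616, 643 and 623 CPM in DMSO and at 486, 521, 472, 468 and 480 CPM in enzalutamide (log2FC -0.38 ± 0.031, adjusted p = 5.57e-08). Canx, its membrane-bound counterpart, differed far less, at 303 ± 4.93 and 285 ± 9.98 CPM (log2FC -0.09 ± 0.0298, adjusted p = 0.0241). The Canx values of the groups overlapped, in enzalutamide library 5. When enzalutamide library 1 or either of DMSO libraries 4 and 5 was left out, the adjusted p of Canx was between 0.0526 and 0.0761, and it was 0.16 under total-count scaling.

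All 5 genes named as disulfide isomerases fell. P4hb, the classical protein disulfide isomerase (chromosome 11, 120560298 to 120573253), was at 588, 579, 539, 554 and 545 CPM in DMSO and at 414, 425, 400, 397 and 403 CPM in enzalutamide. The lowest DMSO value exceeded the highest enzalutamide value by 114 CPM (log2FC -0.46 ± 0.0314, adjusted p = 5.06e-09). Pdia6, an isomerase that also acts on the sensors, was at 245, 244, 246, 255 and 233 CPM in DMSO and at 183, 192, 182, 192 and 177 CPM in enzalutamide (log2FC -0.40 ± 0.033). Pdia3, the partner of calreticulin and calnexin, had a log2FC of -0.29, Pdia4 -0.21 and Pdia5, at 13.5 CPM in DMSO the least abundant of them in CPM, -0.30. For each of these 5 genes the groups did not overlap, although for Pdia5 only 0.0357 CPM separated them.

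Other thioredoxin-domain genes had log2FCs nearer to 0. Txndc11, which encodes a membrane-bound member of the family, had a log2FC of -0.13 ± 0.0397 (adjusted p = 0.013), and under total-count scaling -0.10 (adjusted p = 0.0522). Its groups were 0.235 CPM apart, and it shares 75 exon bases with the opposite-strand gene Snn, at a mean of 1140 counts. Txndc5 encodes a further isomerase and had 192 ± 1.14 CPM in DMSO against 188 ± 4.89 in enzalutamide. That difference did not pass (log2FC -0.03, 95% interval -0.09 to 0.03, adjusted p = 0.443).

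Ero1l, which encodes an oxidase that recharges the isomerases, was the only one of the 22 chaperones and oxidases that rose in the main test. It was at 43.5, 37.4, 37.3, 36.8 and 38.6 CPM in DMSO and at 45.8, 49.2, 44, 41 and 48.9 CPM in enzalutamide (log2FC 0.24 ± 0.0587, adjusted p = 0.00337). DMSO library 1 lay among the enzalutamide values, and without it the log2FC was 0.28 (adjusted p = 0.00077). Its paralog Ero1lb, which is not among the 38 genes and was chosen for mention after its values were seen, fell from 28.6 ± 1.59 to 24.8 ± 1.97 CPM, with overlapping groups (log2FC -0.21 ± 0.0599, adjusted p = 0.0113). The prolyl isomerase genes Ppib (log2FC -0.02, 95% interval -0.12 to 0.08, adjusted p = 0.778) and Fkbp2 did not pass. Ppib shares 825 exon bases with the opposite-strand gene Snx22, at a mean of 89.5 counts. Fkbp2 was close to the threshold, at -0.11 (95% interval -0.20 to -0.03, adjusted p = 0.0528), and it passed under 11 of 23 alternative settings. With GC and length trends removed Fkbp2 had a log2FC of -0.22 (adjusted p = 5.5e-05).

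**Figure D3:**
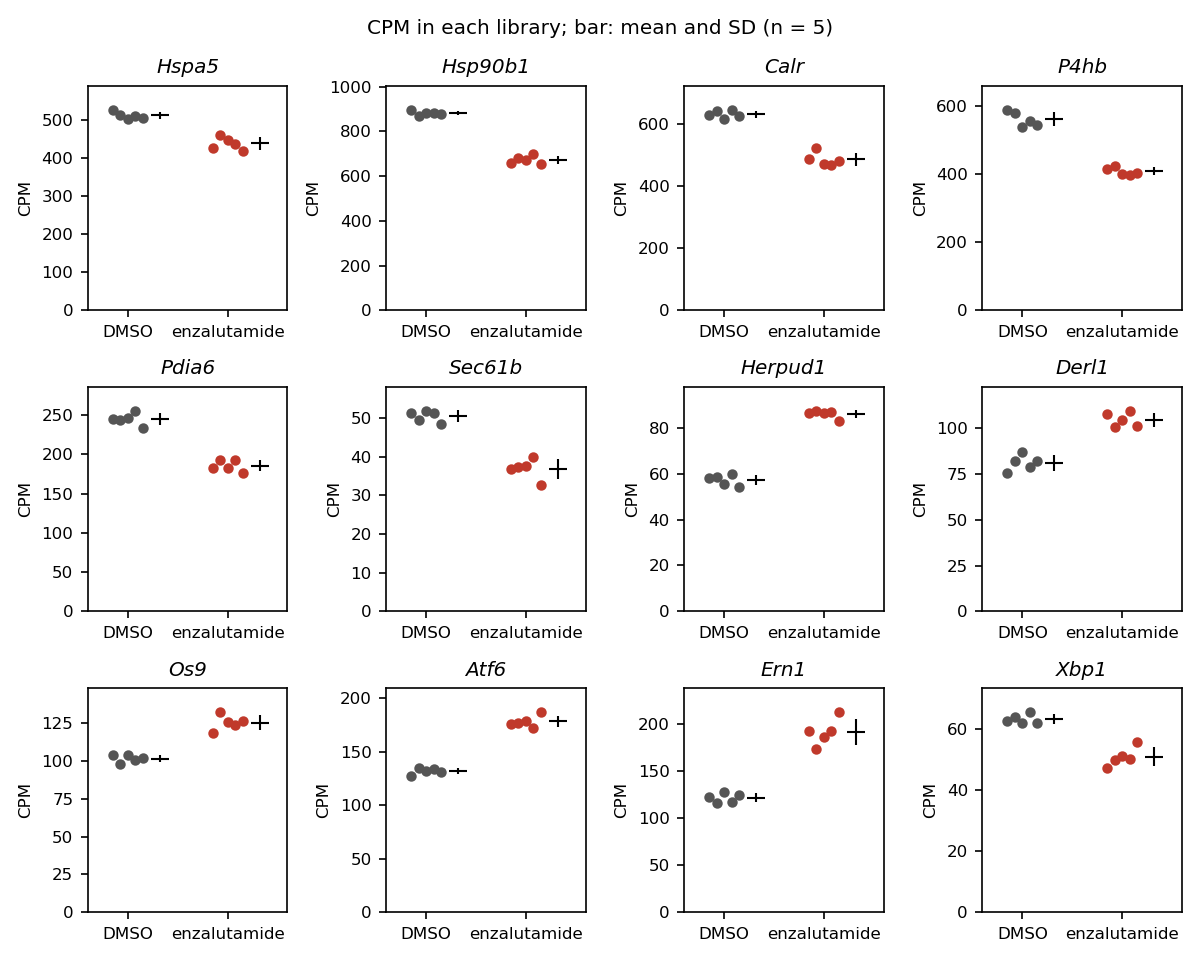
CPM of 12 genes in each of the 5 DMSO (grey) and 5 enzalutamide (red) libraries, with y axes from 0 and bars for the mean and SD. The 12 genes were picked for display. All are among the 28 of 38 genes whose groups did not overlap, so they do not represent the rest. Hspa5, Hsp90b1, Calr, P4hb, Pdia6, Sec61b and Xbp1 are lower in enzalutamide, and Herpud1, Derl1, Os9, Atf6 and Ern1 higher.

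The degradation factors rose in 6 of 10 cases and fell in 3. Herpud1 encodes a membrane protein that gathers the degradation complex. It was at 57.9, 58.7, 55.3, 59.7 and 54.3 CPM in DMSO and at 86.4, 87.2, 86.3, 86.8 and 82.9 CPM in enzalutamide (log2FC 0.59 ± 0.0367, adjusted p = 1.66e-09). The enzalutamide values lay within a narrow band, 23.2 CPM above the highest DMSO value.

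The derlins are membrane proteins of the channel through which substrates leave the ER. Derl1 was at 75.7, 81.9, 86.7, 78.6 and 81.8 CPM in DMSO and at 108, 101, 104, 109 and 101 CPM in enzalutamide (log2FC 0.37 ± 0.0402, adjusted p = 1.43e-06). Derl2 rose without overlap from 39.7 ± 1.21 to 47.4 ± 2.49 CPM, although its exons share 231 bases with the opposite-strand gene Mis12, at a mean of 2135 counts. Derl3 was scarce, at 0.97, 0.965, 0.937, 1.49 and 1.41 CPM in DMSO and 0.348, 0.684, 1.01, 0.78 and 0.231 CPM in enzalutamide. Its groups overlapped, and its log2 fold change of -0.91 passed narrowly (SE 0.351, adjusted p = 0.0492). The Derl3 call was lost on leaving out any single library other than enzalutamide library 3 (adjusted p between 0.0514 and 0.12).

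Lectins that recognise misfolded glycoproteins gave mixed results. Os9, which carries them to the ligase, rose from 104, 97.7, 103, 100.2 and 102 CPM in DMSO to 118, 132, 126, 123 and 126 CPM in enzalutamide (log2FC 0.30 ± 0.0349, adjusted p = 2.67e-06). Of the EDEM genes, whose products trim mannose or hand substrates on, Edem2 rose (0.18 ± 0.0456), Edem3 fell (-0.17 ± 0.0424) and Edem1 did not pass (0.02, 95% interval -0.07 to 0.10, adjusted p = 0.803). The Edem2 and Edem3 values each separated the groups, in opposite directions.

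The ubiquitin ligase of the pathway consists of Syvn1, the catalytic subunit also called HRD1, and its partner Sel1l. Syvn1 was at 76.7, 85, 75, 73.7 and 77.1 CPM in DMSO and at 65.9, 66.9, 63.3, 61 and 61.3 CPM in enzalutamide (log2FC -0.28 ± 0.0438, adjusted p = 6.24e-05). Sel1l was at 123, 127, 126, 133 and 132 CPM in DMSO and at 143, 131, 140.03, 144 and 155 CPM in enzalutamide, with enzalutamide library 2 inside the DMSO range (log2FC 0.15 ± 0.0409, adjusted p = 0.00706). Syvn1 shares 91 exon bases with the opposite-strand gene Mrpl49, at a mean of 3582 counts.

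Among the sensors, Ern1 had the largest rise of all 38 genes. Ern1 encodes IRE1α, a kinase and nuclease that splices Xbp1 mRNA (chromosome 11, 106394650 to 106487852). It was at 123, 117, 128, 118 and 125 CPM in DMSO and at 193, 174, 187, 193 and 213 CPM in enzalutamide, a 1.57-fold rise (log2FC 0.65 ± 0.0453, adjusted p = 6.12e-09). Atf6, whose product is cut in the Golgi to release a transcription factor (chromosome 1, 170704674 to 170867771), was at 128, 135, 132, 134 and 131 CPM in DMSO. In enzalutamide Atf6 was at 176, 177, 179, 172 and 187 CPM (log2FC 0.43 ± 0.0311, adjusted p = 9.42e-09). Neither gene's groups came near to overlapping.

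Xbp1, the transcription factor downstream of IRE1, went the other way. It was at 62.7, 64, 62.1, 65.5 and 61.8 CPM in DMSO and at 47.3, 50, 51, 50.2 and 55.8 CPM in enzalutamide (log2FC -0.31 ± 0.0441, adjusted p = 2.36e-05). These counts are per gene and do not separate the spliced from the unspliced form of Xbp1. Wfs1, which encodes wolframin, an ER membrane protein that restrains ATF6 and is mutated in a syndrome with diabetes, was at 16.5 ± 1.08 and 16.8 ± 0.97 CPM (log2FC 0.03, 95% interval -0.09 to 0.16, adjusted p = 0.738).

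Both translocation genes fell. Sec61b, the β subunit of the channel, was at 51.4, 49.6, 51.8, 51.3 and 48.4 CPM in DMSO and at 36.7, 37.2, 37.6, 40 and 32.7 CPM in enzalutamide (log2FC -0.45 ± 0.0502, adjusted p = 1.64e-06). Ssr1, a subunit of the translocon-associated TRAP complex, fell from 324 ± 8.89 to 277 ± 7.51 CPM (log2FC -0.23 ± 0.0297, adjusted p = 1.18e-05). For both, each enzalutamide library was below all DMSO libraries.

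**Figure D4:**
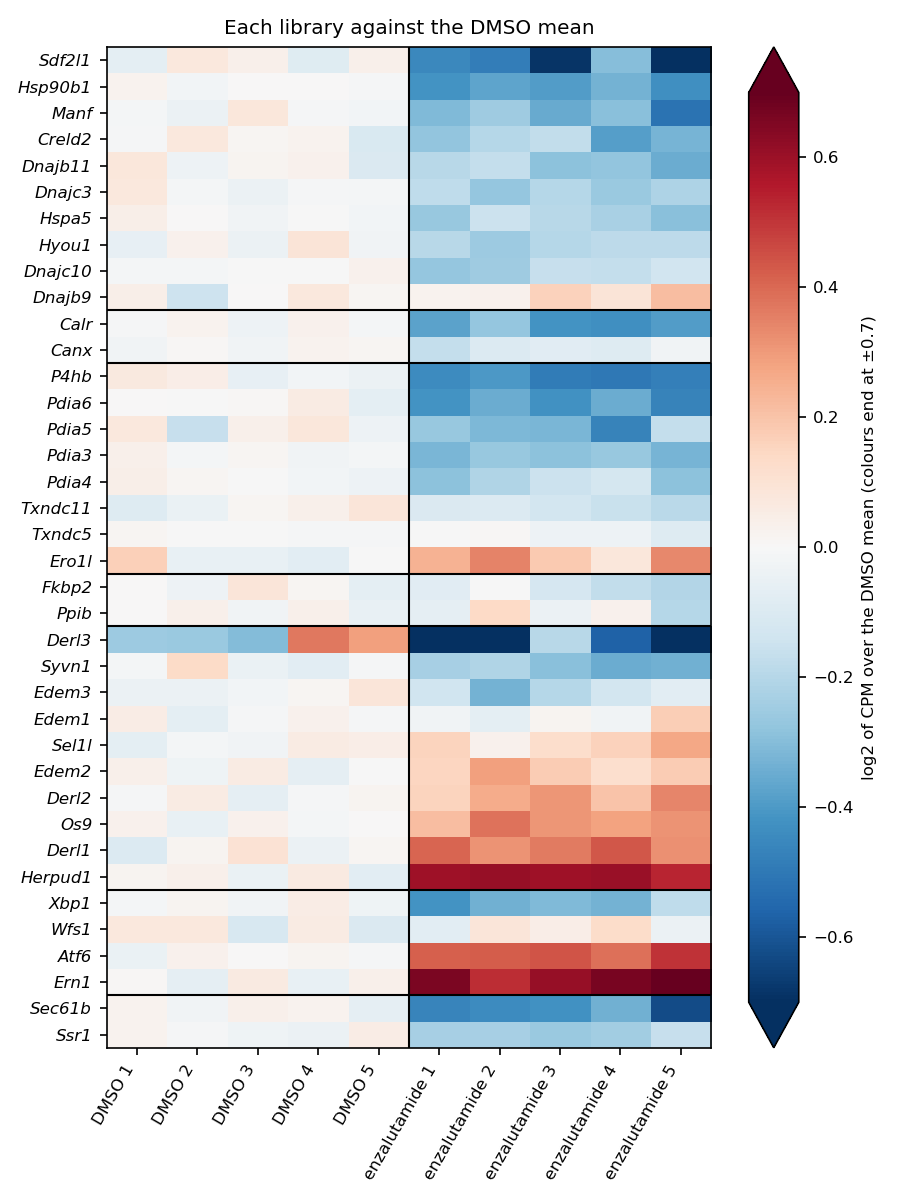
The log2 of each library's CPM over the DMSO mean of the gene (colour, blue lower and red higher, ending at ±0.7), with genes in rows by role and the 10 libraries in columns. In the enzalutamide columns the chaperone rows are mostly blue, with Ero1l and Dnajb9 as exceptions and Ppib and Txndc5 mixed. Rows from Sel1l to Herpud1, with Atf6 and Ern1, lie above the DMSO mean in all 5 enzalutamide columns, Sel1l only slightly in library 2. Derl3 varies most.

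Levels were also compared per length, as CPM per kilobase of exon sequence (RPKM), with the exons of all annotated isoforms merged. In DMSO the 5 genes above 100 RPKM were Calr and Hsp90b1 (both 219), P4hb (196), Pdia3 (179) and Hspa5 (121), and all 5 fell. In enzalutamide they were at 168, 167, 142, 146 and 104 RPKM. The genes that rose were less abundant, from 4.94 RPKM for Derl2 to 38.6 RPKM for Os9 in DMSO. Fallen genes covered a wider span, from 0.58 RPKM for Derl3 upward.

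Other genes of the same pathways were taken from lists made by function, also with earlier results of these data known. Of 30 tested ER folding genes outside the 38, 6 fell and 4 rose (33.3% called), close to the 37.8% of all genes, with a median log2FC of -0.05. Those with the lowest adjusted p were Dnajb14 (0.28), a J protein gene, Hspa13 (-0.25), an Hsp70 relative, Prdx4 (-0.20), a peroxide-using oxidant of isomerases, and Ganab (-0.12), a glucosidase subunit. The wider list was not tested against the 22 chaperones and oxidases.

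Further degradation genes split evenly, with 9 of 34 higher and 9 lower and a median log2FC of 0.03. That is 52.9% called, beside 37.8% of all genes tested. Vcp, the ATPase that pulls substrates out of the membrane, had a log2FC of -0.47 ± 0.0268 (adjusted p = 4.46e-10), and its cofactor gene Ufd1 -0.28 (SE 0.0399, adjusted p = 2.37e-05). Selenos, a selenoprotein that links Vcp to the derlins, fell as well (-0.41 ± 0.0541), whereas Herpud2, the paralog of Herpud1, rose (0.41 ± 0.057). Other cofactor genes of Vcp, chosen for mention after their values were seen, differed in direction. Nploc4, the partner of Ufd1 (-0.17 ± 0.0313), Ubxn4 (-0.16 ± 0.0349) and Faf2 (-0.13 ± 0.0344) fell. Ubxn6 (0.14 ± 0.0374) and Svip (0.39 ± 0.105, with overlapping groups) rose, and Ubxn8 did not pass (-0.04, adjusted p = 0.698).

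Of 11 further sensor and transducer genes 7 fell and 1 rose (median -0.14). Lower calls were 63.6% and higher calls 9.09% of them, beside 18.8% and 19% of all genes tested. The riser was Mbtps2, the protease gene for the second cut of ATF6 (log2FC 0.41 ± 0.0558). Map3k5 (-0.32) and Traf2 (-0.24), which act downstream of IRE1, and Creb3l2 (-0.30), a relative of Atf6, fell. Eif2ak3, the gene of the sensor PERK, fell from 67.3 ± 2.56 to 59.4 ± 2.13 CPM (log2FC -0.18 ± 0.0396, adjusted p = 0.00149), and Atf6b, the paralog of Atf6, also fell (-0.18 ± 0.0359). Neither overlapped between the groups, and both were chosen for mention after their values were seen. Of 33 further translocation and glycosylation genes 16 fell and 1 rose (median -0.11). Lower calls were 48.5% and higher calls 3.03% of these, beside the same 18.8% and 19% of all genes tested. Stt3a (-0.29), the catalytic subunit of an oligosaccharyltransferase, Ssr3 (-0.18) of the TRAP complex and Srp68 (-0.20) of the signal recognition particle fell. The riser was Krtcap2 (0.31), an oligosaccharyltransferase subunit gene.

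All 8 listed genes of the ATF4 arm rose, where 19% of all genes tested did, with a median log2FC of 1.32. Their log2FCs were 0.61 for Asns, 0.64 for Atf4, 0.66 for Ppp1r15a, 0.88 for Sesn2, 1.76 for Ddit3, 1.97 for Atf5, 2.19 for Chac1 and 3.07 for Trib3. The lowest of them were close to Ern1 (0.65) and Herpud1 (0.59), the highest of the 38 ER genes. Whether PERK or another route to ATF4 had a part in these rises was not tested.

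**Figure D5:**
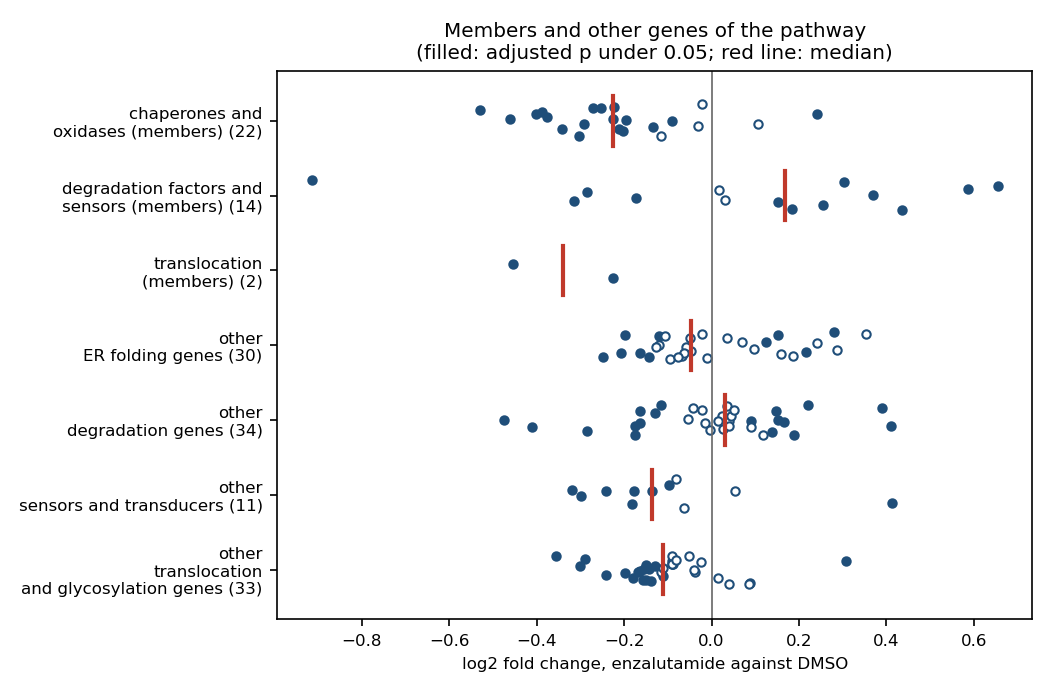
The log2 fold change of each tested gene (points, filled where the adjusted p was under 0.05) for members by role and for the other genes of the pathway, with the median of each list as a red line and its number of tested genes in parentheses. Medians are -0.22 for the chaperones and oxidases and 0.17 for the degradation factors and sensors, and lie between -0.14 and 0.03 for the wider lists.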

How the data were processed

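The authors deposited whole-number counts per Ensembl gene and a second table of signal, the counts scaled by library. HISAT2, StringTie, DESeq2 and the mm10 build are listed, without versions or roles, per the submitters' processing notes. Strand setting and multi-mapping rules: not given in the sources used here. Reads of overlapping genes therefore cannot be told apart. In the scaled table, values times DESeq2's size factors returned the count within 0.01 for all 20039 genes matched by a unique symbol. Columns were matched to samples by name, and 0 were left unused.

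The analysis of counts used edgeR 4.0.16 in R 4.3.3. The filter filterByExpr kept 14156 of 33212 genes, libraries were scaled by TMM, and enzalutamide was compared with DMSO by the quasi-likelihood test with group as the only term and p-values adjusted (Benjamini-Hochberg) over all genes tested. The threshold was 0.05. SE is the absolute log2 fold change over the square root of F. The 95% intervals are normal and so somewhat narrower than the test implies. At this depth 3 counts, the limit for a count of 0, were between 0.0439 and 0.0497 CPM, covering counting error only. Replicates were not repeats of 1 library: within a group their counts gave chi-square values of 9.23 to 37.3 per degree of freedom. The labels call them biological replicates without naming separate cultures, so the tests reflect variation among these libraries, which may be technical.

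The members, roles and lists were chosen with earlier results of these data known. All 38 members are named, and in each other list up to 4 passing genes with the lowest adjusted p. Positions and exon lengths came from GENCODE M21 (GRCm38/mm10), promoters from RefSeq. Fam8a1, on the degradation list, was not analysed here. Some α cell markers are not reported here. A planned description of proteins by their last residues was not made. Alternatives were other size factors, filters and tools (DESeq2 1.42.0, and limma 3.58.1 as voom and as trend on log2 of the scaled signal plus 1 or 8), a replicate block, GC and length trends, and leaving out libraries. The test and the motif search were tested on simulated data.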

Additional observations from a re-analysis of the deposited data

Results flagged for a closer look

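In 6 of 76 gene and group combinations (7.89%) 1 library stood apart from the other 4 by Dixon's ratio, a rule that chance meets in about 1 of 20 groups. The high values were Dnajc3 in DMSO library 1 (50.5 CPM, nearest 47.6), Txndc5 in DMSO library 1 (194 CPM, nearest 192), Ero1l in DMSO library 1 (43.5 CPM, nearest 38.6) and Manf in DMSO library 3 (211 CPM, nearest 198). The low values were Hyou1 in enzalutamide library 2 (139 CPM, nearest 144) and Herpud1 in enzalutamide library 5 (82.9 CPM, nearest 86.3). Without the library concerned, the log2 fold change was -0.21 for Dnajc3, -0.03 for Txndc5, 0.28 for Ero1l, -0.32 for Manf, -0.19 for Hyou1 and 0.60 for Herpud1, and each stayed on its side of the threshold.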

How the results depend on the processing

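Of the 32 genes that passed, 29 kept their direction and an adjusted p under 0.05 under all 23 alternatives, and the exceptions were Canx, Txndc11 and Derl3. The members that fell numbered 20 to 24 and those that rose 9 or 10 across these settings. With the replicate number as a block the counts were 23 and 9, and the block alone changed no member's call. The chaperone and oxidase genes that rose were 1, and 2 with total-count scaling, Dnajb9 being the second. Genes that did not pass changed sign as follows. Under total-count scaling Txndc5 was at 0.00443 and Ppib at 0.0126. Leaving out 1 library at a time gave -0.0649 to 0.0199 for Ppib and -0.0251 to 0.0378 for Edem1, each changing sign without enzalutamide library 5. Wfs1 was at -0.0522 with GC and length trends removed, and at -0.0529 with the replicate block as well. The cause was not tested. Deviations of same-numbered libraries were hardly correlated (-0.01 to 0.05), yet 5 of 10 libraries correlated best with their own number. Whether the numbers mark pairs was not tested further. Derl3, near 1 CPM, was the member most limited by depth.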
